A study of Bos taurus with 20 samples.

Results

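The subcortical maternal complex is a protein assembly of the egg, and the genes followed here are those that encode its subunits. Of the 6 genes sought, NLRP5, NLRP2, OOEP, TLE6, PADI6, and ZBED3, 3 were found by matching the gene name printed for each non-control spot of the array, after removal of the transcript number. NLRP5, OOEP, and TLE6 had 12 of the 61325 spots, which is 3 of 22550 genes or transcripts. NLRP2, PADI6, and ZBED3 had no spot under those names and were not analysed here.

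The complex lies beneath the plasma membrane of the oocyte and of the cells of the cleaving embryo, and it is known as a maternal product: its transcripts are made in the growing oocyte and stored, and loss of a subunit in the mother can stop the embryo at the first cleavages. NLRP5, also called MATER, is a large scaffold protein with leucine-rich repeats, OOEP, also called FLOPED, is a small protein with a KH-like domain, and TLE6 belongs to the Groucho family of co-repressors but acts in the oocyte as a subunit of this complex. KHDC3L, a KH-domain relative of OOEP, is a further component in mammals and was read from a list of related genes.

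Gene expression was measured on 20 custom bovine Agilent arrays of 1 color, 4 each for oocytes, the cumulus cells around them (CC), CC after 4 h of in vitro maturation (CC-IVM), granulosa cells (GC), and the theca cells of the follicle wall (TH), all of them bovine cells from antral follicles of 3 to 6 mm. TH were scraped from the follicle wall, GC and cumulus–oocyte complexes were aspirated, and TH, GC, CC, and oocytes carry the stage immature, whereas CC-IVM were detached from complexes cultured for 4 h. Ovaries came from slaughtered animals, no genotype, treatment other than IVM, or age is labeled, and the methods call the 4 arrays of a cell type biological replicates without saying how many animals or cells each holds. Each value is a log2 processed signal from which the 75th percentile over the spots of its array was subtracted, so 0 stands for a spot at that percentile, and errors are SD over 4 arrays unless stated.

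The share of spots well above background, as marked by the scanner software, was 54.2% to 62.8% on the 16 somatic arrays and 49.4% to 68.8% on the oocyte arrays, with the lowest share on oocyte replicate 2. No spot was saturated. Oocyte markers (GDF9, BMP15, ZP2, ZP3, and ZP4) were well above background on all 4 oocyte arrays, where their summed level was 7.45 to 7.92, against -2.76 to 1.39 on the somatic arrays. Granulosa and cumulus markers had a summed level of 1.14 to 1.60 in the oocyte against 8.57 to 8.62 in CC, and the theca markers reached 9.17 to 9.70 in TH against at most 6.84 elsewhere. Replicates 1 and 2 of TH, GC, CC, and oocytes shared slide 1 and replicates 3 and 4 shared slide 2, and the 4 CC-IVM arrays were alone on slide 3, so the slide and IVM cannot be told apart.

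Each of the 3 genes was read by 2 different probes of 60 bases, each present as 2 spots. The array files place NLRP5 at chr18:63668487-63683298, OOEP at chr9:12981373-12982550, and TLE6 at chr7:22019474-22023366 of UMD 3.1, as spans of 1 transcript each, with no strand or exon for the probe itself. KHDC3L lies at chr9:12969175-12970434, on the same chromosome as OOEP. The stretches below show, for NLRP5, the part that its 2 probes share, because both gave the same direction. For OOEP and TLE6 they show the hexamer AATAAA, a polyadenylation signal, where a probe holds it, and the start of TLE6 probe 1, because the TLE6 probes moved in opposite directions. All are 5′ to 3′ as printed in the array files, of at most 30 bases.
NLRP5 probe 1: gaagcgTctgtcctacctgaacaca
NLRP5 probe 2: gaagcgctgtcctacctgaacaca
OOEP probe 1: gccattctagttAATAAAtttcatttttgt
TLE6 probe 1: ataccagtttgaatctcagataatgagcct
TLE6 probe 2: cgatctttgtcatgtgtAATAAAgcaattg

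In NLRP5 the capital marks 1 base, at position 7 counted from the 5′ end of probe 1, that probe 2 lacks: the shared stretch is 25 bases at the start of probe 1 and 24 bases at the end of probe 2. The OOEP probes shared 33 bases, so the readings of either gene by its 2 probes are not independent. The TLE6 probes shared no run longer than 6 bases, although the files assign both to the same transcript. In OOEP and TLE6 the capitals mark AATAAA, searched on the printed strand. It starts at base 35 of OOEP probe 1 and at base 48 of TLE6 probe 2, is also in NLRP5 probe 1 at base 38, and was in 7.97% of the 50909 distinct probe sequences. TLE6 probe 1 shared a run of 15 bases with a probe for an endogenous retroviral element, and the other 5 probes shared no run of 15 bases with a probe of another gene. Both TLE6 probes were 55.0% G and C.

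NLRP5, OOEP, and TLE6 each had a higher level in the oocyte than in TH, GC, CC, and CC-IVM, and the values of the 4 oocyte arrays lay above those of all 16 somatic arrays for the 3 genes. Of all 22550 genes, 31.9% were higher in the oocyte than in TH, 30.1% than in GC, 31.1% than in CC, and 30.4% than in CC-IVM. As many as 23.3% were higher in each of the 4 comparisons and 21.9% had the oocyte arrays above all somatic arrays. By probe the picture was less uniform: 5 of the 6 probes were higher in the oocyte and 1, TLE6 probe 1, was lower, where 29.3% of 51307 probes were higher and 48.4% lower. Comparisons used limma on all 20 arrays, with p-values adjusted by Benjamini–Hochberg over all genes or all probes and a threshold of 0.05. The median over all genes of the difference from the somatic mean was -0.60 on the log2 scale, a shift that was -0.04 after quantile normalization and -1.40 with normexp background correction, and the share of higher among called genes was 39.8%, 51.5%, and 25.6% under these 3 scalings.

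**Figure D1:**
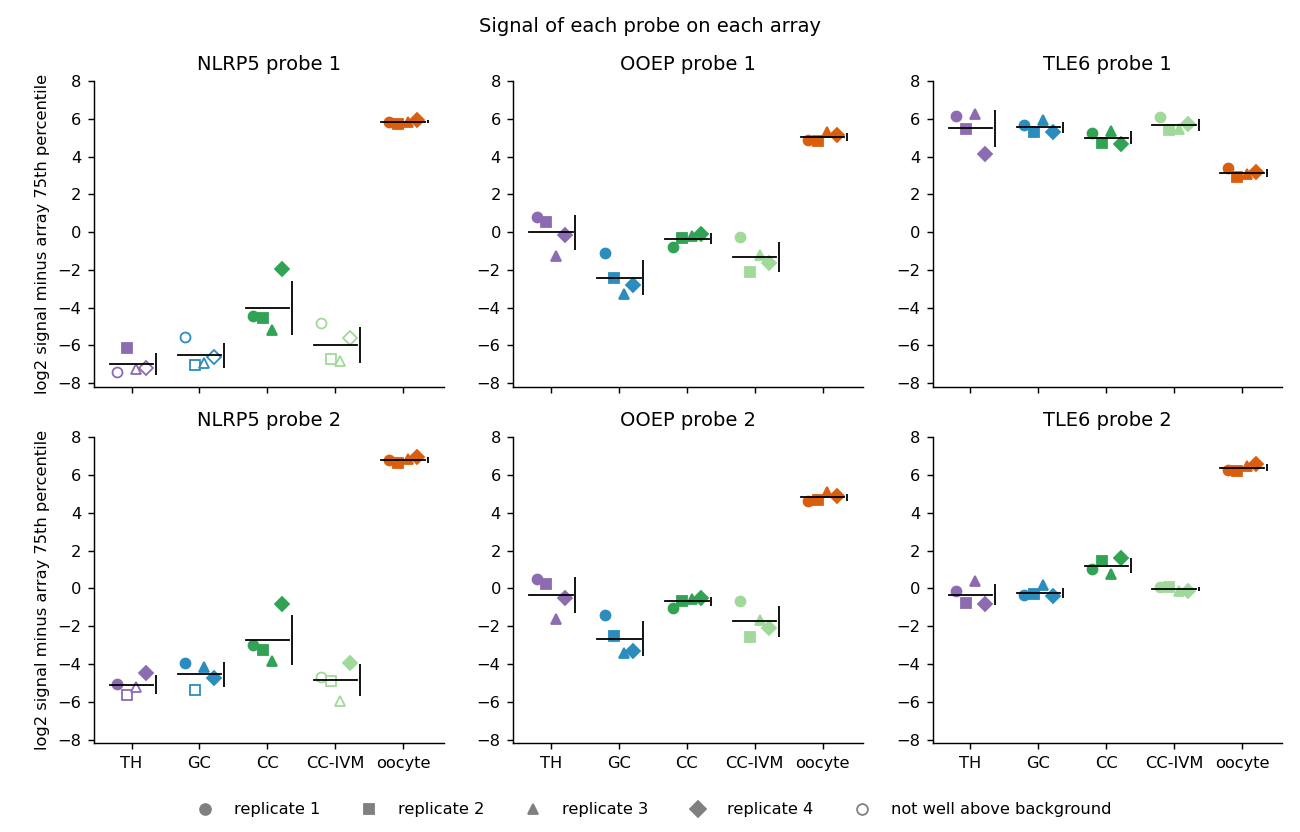
Log2 signal minus the 75th percentile of the array for each probe of NLRP5, OOEP, and TLE6 on 20 arrays. Symbols mark the replicate, open symbols a signal not well above background, horizontal lines the mean, and vertical lines the SD of 4 arrays. The oocyte lies above every somatic array for 5 probes and, for TLE6 probe 1, below every one. The share of all probes that separate in this way was not counted.

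NLRP5 showed the largest difference of the 3 genes. Its level was 6.32, 6.19, 6.36, and 6.46 on oocyte replicates 1 to 4. It was -3.64, -3.90, -4.41, and -1.40 in CC, -4.67, -5.79, -6.28, and -4.70 in CC-IVM, -4.77, -6.12, -5.60, and -5.83 in GC, and -6.19, -5.63, -6.28, and -5.77 in TH. The oocyte arrays lay close together, the somatic arrays were spread over a wide and low range, and CC replicate 4 was the highest of them.

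The level of NLRP5 was 6.33 ± 0.11 in the oocyte, and the difference from the somatic mean was 11.39 ± 0.39 (SE; adjusted p = 2.6e-15), which was rank 3 of the 22550 genes. The gene was well above background on 11 of the 16 somatic arrays, and the difference was 8.98 with normexp background correction and 12.94 after quantile normalization. By group the difference from the oocyte was 12.30 for TH, 11.91 for GC, 9.67 for CC, and 11.69 for CC-IVM (adjusted p from 5.3e-14 to 1.8e-12). NLRP5 probe 1 was not well above background on any GC or CC-IVM array. For that probe and the processed signal, the oocyte was at least 1883-fold higher than GC and at least 1542-fold higher than CC-IVM. For these bounds each dim array was given the larger of its own reading and the dimmest reading that still stood well above background on it. They were not computed for the alternatives, where the fitted log2 difference of probe 1 was as low as 8.70 for GC and 8.36 for CC-IVM. The probe was well above background on 1 TH array and on the 4 CC arrays, and probe 2 on 2 TH, 3 GC, 4 CC, and 1 CC-IVM array. The difference from the somatic mean was 11.73 by probe 1 and 11.11 by probe 2 (exact permutation test of the gap between them, p = 0.099, two-sided).

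By the F-test of limma over the 4 somatic groups, NLRP5 and OOEP differed and TLE6 did not pass (adjusted p = 0.00074, 0.0010, and 0.29), where 51.1% of all genes differed. The value of TLE6 is a median over probes that disagree. By the same F-test, TLE6 probe 2 differed (adjusted p = 0.00016) and probe 1 did not pass (adjusted p = 0.38). The share of all probes that differed is not given here. Across these groups, the mean of NLRP5 followed the order CC, CC-IVM, GC, and TH. CC was higher than GC by 2.24 ± 0.50 (SE; adjusted p = 0.0071) and than TH by 2.63 ± 0.50 (adjusted p = 0.00036), where 4.44% and 15.6% of all genes were higher. The difference between GC and TH was 0.39 (95% confidence interval -0.65 to 1.43), between CC-IVM and GC 0.22 (-0.82 to 1.26), and between CC-IVM and TH 0.61 (-0.43 to 1.65), none past the threshold. Without CC replicate 4 the difference of CC from GC was 1.60 and that from TH 1.99, and CC minus GC did not pass within either slide (1.68 on slide 1, adjusted p = 0.20, and 2.81 on slide 2, adjusted p = 0.21) or with normexp background correction (0.53, adjusted p = 0.25).

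OOEP differed from NLRP5 in that both of its probes were well above background on every somatic array. Its level was 4.79, 4.76, 5.20, and 5.02 on oocyte replicates 1 to 4. It was 0.66, 0.38, -1.42, and -0.33 in TH, -1.26, -2.48, -3.29, and -3.09 in GC, -0.89, -0.45, -0.37, and -0.29 in CC, and -0.43, -2.38, -1.46, and -1.83 in CC-IVM. No somatic array came within 4.09 of the lowest oocyte array, and TH replicate 1 was the highest somatic array.

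The level of OOEP was 4.94 ± 0.21 in the oocyte, and the difference from the somatic mean was 6.12 ± 0.37 (SE; adjusted p = 1.0e-11), which was 69.7-fold and rank 355 of 22550. It was smallest against TH, 5.12 (34.7-fold), followed by CC, 5.44 (43.4-fold), CC-IVM, 6.47 (88.4-fold), and GC, 7.47 (177-fold), with adjusted p of at most 7.5e-09. The 2 OOEP probes gave 6.06 and 6.18 for the difference from the somatic mean (exact permutation test of their difference, p = 0.085, two-sided).

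In the somatic cells the mean of OOEP followed another order than that of NLRP5: TH, CC, CC-IVM, and GC. GC was lower than TH by -2.35 ± 0.46 (SE; adjusted p = 0.00077), where 11.1% of genes were lower, and CC was higher than GC by 2.03 ± 0.46 (adjusted p = 0.0090). The last of these was 1.20 within slide 1 (adjusted p = 0.31) and 2.86 within slide 2. CC-IVM was lower than TH by -1.35 (adjusted p = 0.024), where 18.5% of genes were lower, a comparison in which slide and group cannot be told apart. CC and TH differed by -0.32 (95% confidence interval -1.30 to 0.65), and CC-IVM and GC by 1.00 (0.03 to 1.98; adjusted p = 0.12). These are bulk samples, in which fewer cells of a type and less RNA per cell cannot be told apart.

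TLE6 gave opposite readings by its 2 probes. TLE6 probe 1 was at 3.40, 2.92, 3.08, and 3.17 in the oocyte, below the range of the somatic arrays, which was 4.13 to 6.26. TLE6 probe 2 was at 6.27, 6.24, 6.50, and 6.58 in the oocyte, above the range of the somatic arrays, which was -0.81 to 1.60. Neither probe had an oocyte array inside the somatic range. Of all genes, 21.9% had the oocyte arrays above all somatic arrays, and the share of probes above or below them was not counted. Both probes were well above background on all 20 arrays, and their 2 spots were averaged.

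For TLE6 probe 1 the oocyte was lower than the somatic mean by -2.29 ± 0.28 (SE; adjusted p = 5.8e-07), which was 4.88-fold. For TLE6 probe 2 it was higher by 6.24 ± 0.20 (adjusted p = 3.0e-15), which was 75.7-fold, and by 7.85 after quantile normalization. Against single groups, probe 1 was lower in the oocyte by -2.35 for TH, -2.41 for GC, -1.86 for CC, and -2.52 for CC-IVM, where 29.6%, 35.8%, 30.2%, and 49.9% of probes were lower. Probe 2 was higher by 6.72, 6.63, 5.18, and 6.43, where 28.4%, 26.9%, 27.5%, and 27.1% of probes were higher. The oocyte effect of probe 2 exceeded that of probe 1 by 8.53 (exact permutation test over arrays, p = 0.00041, two-sided, which is the smallest that the 4845 regroupings allow). This p-value follows from the separation of the ranges described above and adds no further evidence. The test also treats arrays of different somatic groups as interchangeable. What sets the 2 probes apart was not tested.

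The value of TLE6 as a gene, the median over its 4 spots, thus lies between opposed probes. It was 4.78 ± 0.14 in the oocyte and higher than the somatic mean by 2.01 ± 0.21 (SE; adjusted p = 4.3e-08, rank 3685 of 22550), and with the brightest probe alone it was lower by -2.29. The comparisons of TLE6 among the somatic groups below are therefore given by probe, whereas counts of complex genes and correlations use the median over its probes.

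**Figure D2:**
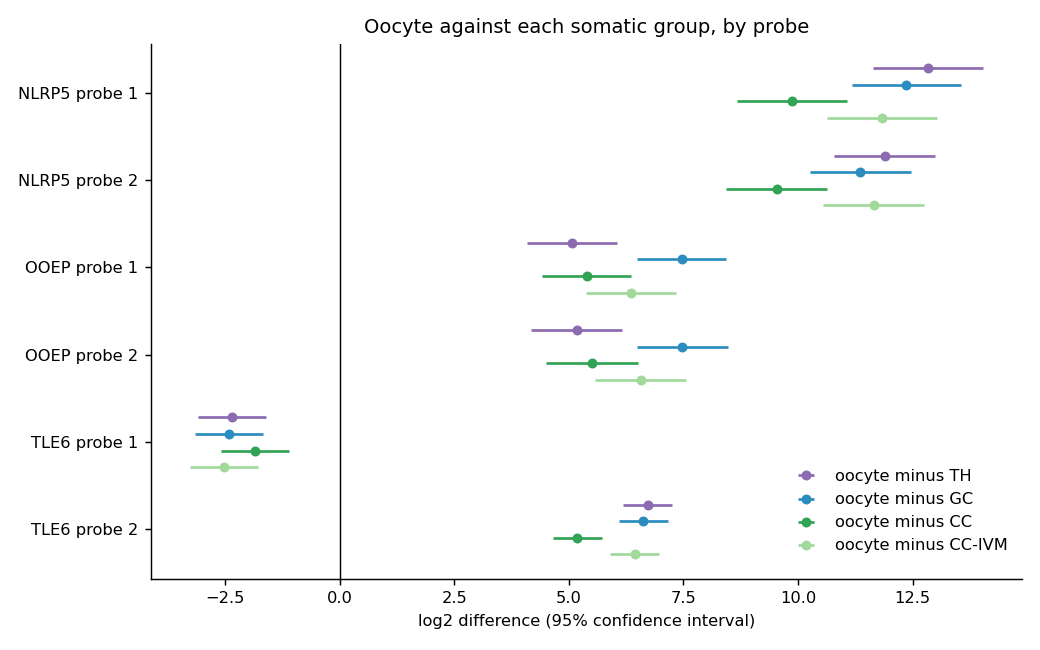
Log2 difference between the oocyte and each somatic group for the 6 probes, with 95% confidence intervals from limma on 20 arrays. The NLRP5 probes lie between 9.53 and 12.84, the OOEP probes between 5.06 and 7.48, TLE6 probe 2 between 5.18 and 6.72, and TLE6 probe 1 below 0.

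Among the somatic cells the 2 TLE6 probes also separated. TLE6 probe 2 was 1.02, 1.45, 0.78, and 1.60 in CC, all above the other somatic arrays, whose highest value was 0.41 on TH replicate 3. CC was higher than GC by 1.44 ± 0.26 (SE; adjusted p = 0.0015) and than TH by 1.54 ± 0.26 (adjusted p = 0.00012), where 3.63% and 13.8% of probes were higher. Within slides 1 and 2 the difference from GC was 1.57 and 1.32 (adjusted p = 0.12 and 0.38), and within slide 2 that from TH was 1.39 (adjusted p = 0.13), none past the threshold. TLE6 probe 1 gave -0.55 (95% confidence interval -1.29 to 0.19) and -0.49 (-1.23 to 0.25) for the same comparisons, neither past the threshold. TH replicate 4 was the lowest somatic array for probe 1, at 4.13, and without it the difference between CC and TH was -0.95 (adjusted p = 0.011).

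CC-IVM was compared with CC to follow CC over 4 h of maturation. NLRP5 was lower in CC-IVM by -2.02 ± 0.50 (SE; adjusted p = 0.0037) and TLE6 probe 2 by -1.25 ± 0.26 (adjusted p = 0.0010), where 15.6% of genes and 13.9% of probes were lower. All 4 CC arrays lay above all 4 CC-IVM arrays for TLE6 probe 2 and for NLRP5 as a gene. For NLRP5 probe 1 they overlapped, with CC replicate 3 at -5.19 and CC-IVM replicate 1 at -4.83. How many of all genes or probes separate in this way was not counted. With NLRP5 probe 1, not well above background on any CC-IVM array, CC-IVM was at least 1.64-fold lower by a bound computed for the processed signal only. Over 32 alternatives the fitted difference by this probe ranged from -2.35 to -0.003. OOEP was lower by -1.03 (95% confidence interval -2.00 to -0.05; adjusted p = 0.092), and TLE6 probe 1 differed by 0.66 (-0.08 to 1.41; adjusted p = 0.16), neither past the threshold.

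The median over all genes was 0.37 higher in CC-IVM, 0.01 after quantile normalization, and 0.57 with normexp, and 43.5%, 56.6%, and 16.6% of called genes were lower under these 3 scalings. NLRP5 depended on the handling of dim signals, with a difference of -0.25 (adjusted p = 0.37) after normexp background correction, and it was -1.38 without CC replicate 4. For TLE6 probe 2 the difference stayed between -1.59 and -1.12 in 32 alternatives. OOEP passed the threshold in the table of processed values deposited with the arrays (-1.20, adjusted p = 0.011), with normexp (-0.72, adjusted p = 0.047), with the 8 arrays fitted alone (-1.03, adjusted p = 0.047), and without CC-IVM replicate 1 (-1.39, adjusted p = 0.029).

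Markers of the oocyte moved with this comparison. The summed level of the 5 oocyte markers was 0.32, -0.23, -0.96, and 1.39 in CC and -1.26, -2.29, -2.76, and -0.94 in CC-IVM, so all but 1 CC array lay above all CC-IVM arrays, and CC replicate 4 was the highest for the markers and for NLRP5. ZP4 was lower in CC-IVM by -3.44 (adjusted p = 0.0019), ZP2 by -3.17 (adjusted p = 0.0016), and ZP3 by -1.24 (adjusted p = 0.014), and GDF9 and BMP15 were not called (-0.75 and -0.21). The 5 markers were well above background on all CC arrays. In GC their summed level was -2.61 to -1.46 and in TH -1.52 to -0.61. The part of oocyte RNA in the levels of NLRP5, OOEP, and TLE6 in somatic cells was not tested. Of other genes high in the oocyte, NLRP9, ZAR1, NPM2, DPPA3, BTG4, and KPNA7 were well above background on all 4 CC arrays. NLRP14 was so on 2 CC arrays, NLRP8 and NLRP1 on 1 each, and NLRP13 and KHDC3L on no CC array. KHDC3L was also not well above background on any CC-IVM array.

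**Figure D3:**
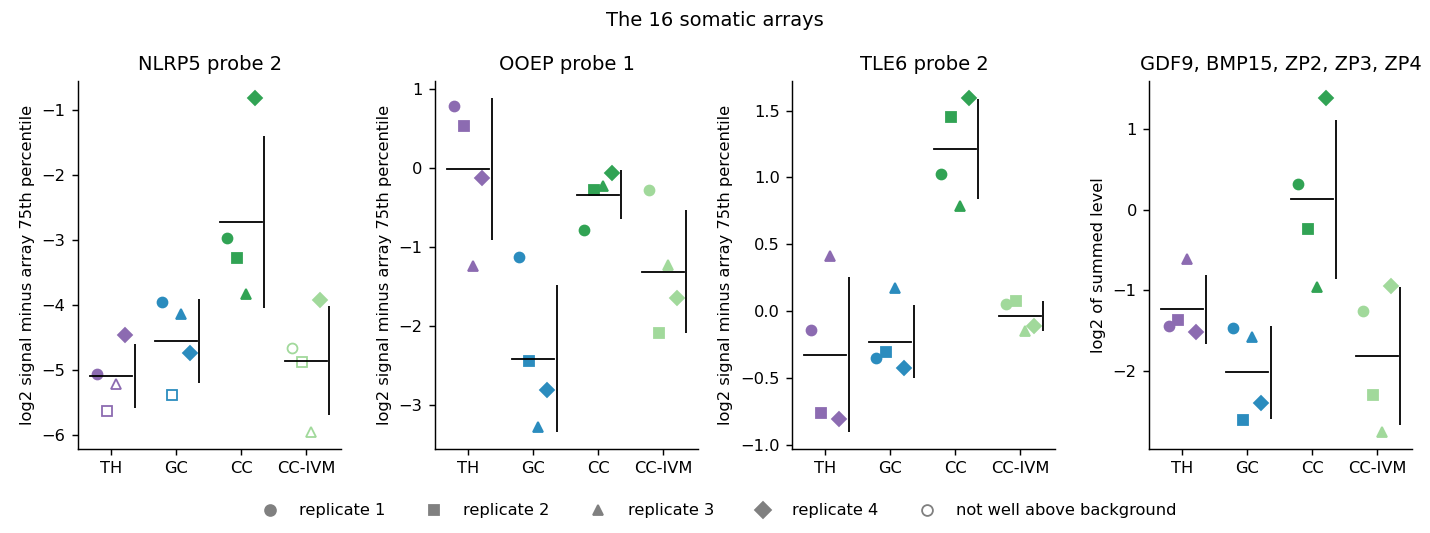
The 16 somatic arrays for NLRP5 probe 2, OOEP probe 1, TLE6 probe 2, and the summed level of 5 oocyte markers, as log2 values relative to the 75th percentile of the array, each panel on its own scale. Symbols mark the replicate, open symbols a signal not well above background (marked for the probes), lines the mean and SD of 4 arrays; CC replicate 4 is highest for NLRP5, for TLE6 probe 2, and for the markers, whereas OOEP is highest in TH.

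KHDC3L was the only one of 4 KH-domain relatives listed that was found on the array. Its level was 4.37, 3.60, 2.90, and 3.07 in the oocyte and between -7.43 and -5.43 on the somatic arrays, none of them well above background. With the processed signal, the oocyte was at least 390-fold higher by the bound that the dim arrays allow (adjusted p = 6.2e-17). The fitted difference plotted for it, 10.32, was 6.49 with normexp, which is below that bound.

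Of 9 other NLRP genes, 5 were higher in the oocyte, 3 lower, and 1 not called, where 32.5% of all genes were higher and 49.1% lower. NLRP9 was at 6.54 ± 0.21 in the oocyte and -2.61 ± 1.29 in CC, and was well above background on the 4 CC arrays and on 4 of the other 12 somatic arrays. Its fitted difference from the somatic mean was 11.66 ± 0.55 (SE; adjusted p = 2.8e-13), and 9.06 with normexp. NLRP14 was at 3.87 ± 0.07 in the oocyte and well above background on 2 of 16 somatic arrays, both CC, and the oocyte was at least 572-fold higher than TH (adjusted p = 9.4e-14), 479-fold higher than GC (adjusted p = 1.1e-13), and 393-fold higher than CC-IVM (adjusted p = 1.3e-13). NLRP8 was well above background on 1 somatic array, and the oocyte was at least 150-fold higher than TH (adjusted p = 4.4e-15), 126-fold higher than GC (adjusted p = 6.9e-15), and 103-fold higher than CC-IVM (adjusted p = 1.1e-14). The fitted differences of NLRP14 and NLRP8 from the somatic mean were 10.35 and 8.90, and 6.84 and 4.85 with normexp. The bounds of both genes apply to the processed signal and were not computed for normexp. NLRP13 and NLRP1 were also higher. These 5 kept their direction and call under the 5 other scalings and sources of values. NLRP10, NLRP3, and NLRP6, the 3 called lower (-1.03, -0.92, and -0.82), stood well above background on no oocyte array and on at most 2 of the 16 somatic arrays, and none of them was called after quantile normalization.

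Other maternal-effect genes, whose products also act in the egg or early embryo, were higher in the oocyte for 7 of the 9 measured, where 32.5% of all genes were higher. DPPA3, a factor that guards the maternal genome's methylation, was higher by 11.25 (adjusted p = 9.7e-16), BTG4, an adaptor for the clearance of maternal mRNA, by 11.24 (adjusted p = 2.4e-13), and ZAR1, a protein that binds stored mRNA, by 11.08 (adjusted p = 2.2e-15). These 3 were well above background on 6, 6, and 8 of 16 somatic arrays, and with normexp their differences were 7.96, 8.19, and 7.78. NPM2, KPNA7, UHRF1, and DNMT1 were also higher. ZFP57 and TRIM28, partners at imprinted regions, were lower by -2.81 and -0.60, and TRIM28 was not called after quantile normalization (-0.13) or in the deposited table (0.10). Of the same 9 genes, 7 were lower in CC-IVM than in CC, where 15.6% of all genes were lower, among them UHRF1 (-3.44, adjusted p = 1.1e-06), KPNA7 (-2.99, adjusted p = 0.0013), and DPPA3 (-2.11, adjusted p = 0.0014), and with normexp BTG4, DPPA3, KPNA7, and ZAR1 were not called. The summed level of the oocyte markers was -0.96 to 1.39 in CC and -2.76 to -0.94 in CC-IVM, and its part in these differences was not tested.

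For the counts that follow, 32.5% of all genes were higher in the oocyte than the somatic mean and 49.1% lower, with a median difference of -0.60. Of 4 other PADI genes, which encode enzymes that turn arginine into citrulline, 2 were higher in the oocyte. These were PADI1 by 2.54 (adjusted p = 2.1e-11) and PADI4 by 0.52 (adjusted p = 0.017). With normexp PADI1 was at -0.18 and not called and PADI4 was lower (-1.01). Of 5 other TLE and AES genes, 1 was higher and 4 were lower. TLE4, a Groucho co-repressor, was higher by 2.39 (adjusted p = 1.1e-09), whereas TLE2, TLE3, and AES were lower by -3.57, -2.08, and -1.91. TLE1, the fourth, stood well above background on no oocyte array, and was not called after quantile normalization. Of 5 other ZBED genes, whose differences were all below 0, none was higher by limma, nor at an unadjusted p of 0.05, although ZBED8 (-0.14) was higher in the deposited table (0.46), and 3 were lower, ZBED6 by -3.30 (adjusted p = 1.1e-09), ZBED5 by -1.94, and ZBED2 by -1.19, the last of them well above background on no oocyte array. Of 4 partners, CFL2 and AXIN1 were higher by 0.59 and 0.78, and CTNNB1 and CFL1 were lower by -2.25 and -0.76. AXIN1 was not called when the percentile was taken over probes detected on all arrays (0.63), nor CFL1 in the deposited table (-0.05).

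Over all 37 related genes on the array, 18 were higher in the oocyte, 14 lower, and 5 not called, with a median difference of -0.12 against -0.60 over all 22550 genes. Of all genes, 32.5% were higher and 49.1% lower. The 3 complex genes had a median of 6.12.

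**Figure D4:**
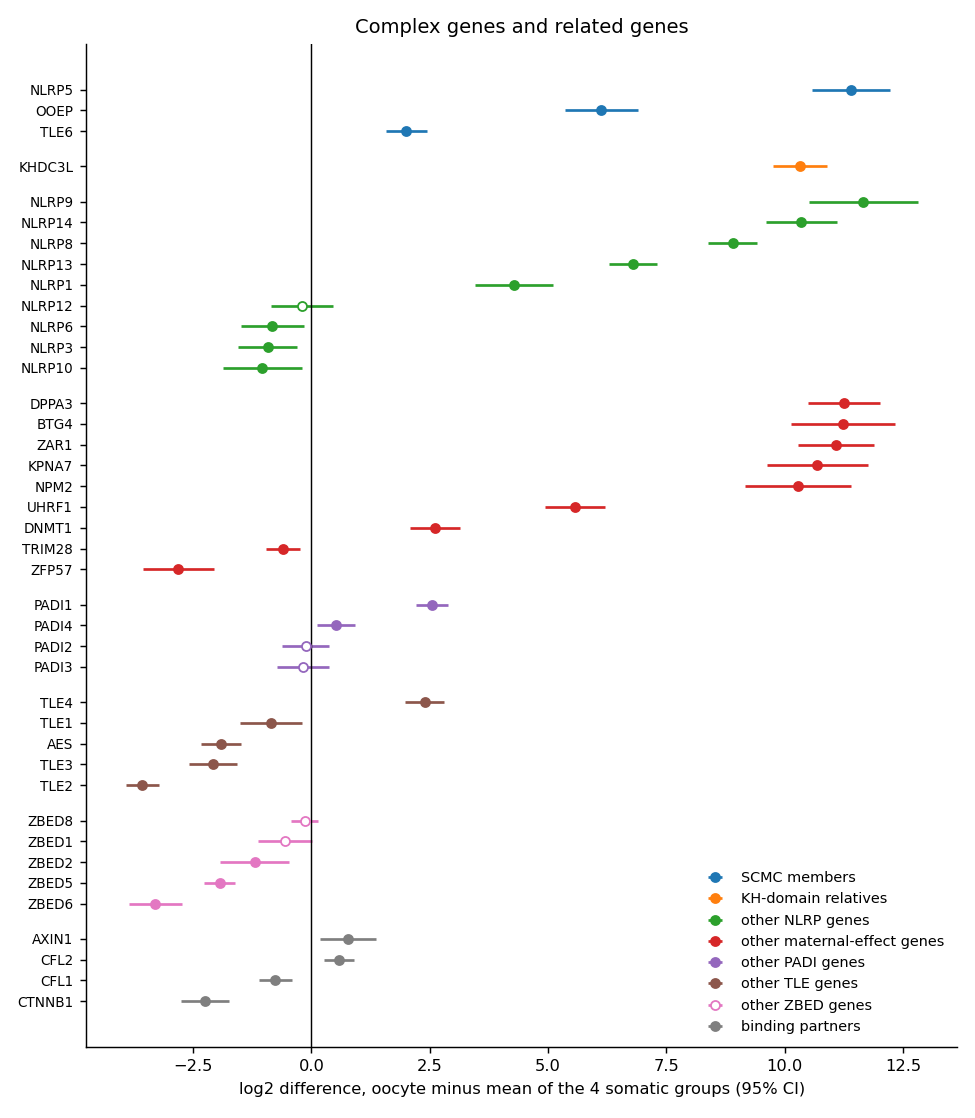
Log2 difference between the oocyte and the mean of the 4 somatic groups, with 95% confidence intervals, for the 3 complex genes and 37 related genes, colored by list; open symbols did not pass the adjusted p of 0.05. NLRP9 (11.66), NLRP5 (11.39), and DPPA3 (11.25) lie farthest to the right, TLE6 is the median over its opposed probes, and the TLE and ZBED genes lie mostly left of 0.

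Genes whose pattern was most like that of each complex gene were sought by Pearson's r over the 20 arrays among 9782 genes well above background on all 4 oocyte arrays. Such an r mainly reflects the gap between oocyte and somatic arrays. Both genes of a pair are read on the same arrays, and r is given as a description. NLRP5 was closest to ZAR1 (r = 0.997), OOSP1 (r = 0.993), and ZP3 (r = 0.993). OOEP was closest to MEI1, a gene of meiotic recombination (r = 0.965), and DDX25 (r = 0.964), and, like OOEP, DDX25 had its highest somatic mean in TH (-3.78 ± 0.56) and its lowest in GC (-6.09 ± 0.06). TLE6, as the median over its probes, was closest to B3GNT4 (r = 0.957), TMEM171 (r = 0.947), and TCTN1 (r = 0.940). Among themselves the 3 complex genes had r of 0.85 to 0.92 over the 20 arrays, and over the 16 somatic arrays r was 0.30 for NLRP5 and OOEP, 0.40 for NLRP5 and TLE6, and 0.04 for OOEP and TLE6.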

How the data were processed

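The authors deposited, for each of 20 arrays, Feature Extraction 10.7.3.1 output (UMD 3.1 annotation), whose processed intensity has the local background removed and no scaling between arrays, with marks of 0 or 1 for spots well above background, saturated, or outlying, and 1 table of log2 values, which equals the log2 median signal minus the array median within 5.0e-09. Labeling used 200 ng of total RNA.

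Control and outlying spots were left out, and log2 processed signal was centered on the 75th percentile of the non-control spots. A gene is the median over its spots, and a probe the mean over spots of 1 sequence. Of 61325 spots, 51546 carried a gene name and 734 were named through RefSeq accessions. Groups were compared with limma 3.58.1 in R 4.3.3 (all 20 arrays, 5 groups), with exact permutation tests in scipy 1.17.1 for the gap between 2 probes, and Python 3.11.15 for figures. Fits were tested on simulated data. The limma p-values rest on 1 spread per gene or probe, pooled over the 5 groups of 4 arrays and moderated over all genes or probes. The number of arrays limits precision.

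The members, the lists of related and marker genes, and the tests were chosen with earlier results of these data known. The text names every probe of the members, the genes of those lists (with values for the 3 largest changes in each direction, and for others only where a setting changed a call), and, for each member, the 3 genes with the highest r, apart from 1 that is not reported here. For that search a gene symbol was taken to be one in the RefSeq table, a choice made after its first output was seen. Replicate numbers were not used as pairs.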

Additional observations from a re-analysis of the deposited data

Results flagged for a closer look

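Of 45 groups of 4 arrays examined for a member or a member probe, 1 held an array far from the other 3: NLRP5 probe 1 in TH, where TH replicate 2 was at -6.13 and the others were between -7.38 and -7.18. The gap was 0.842 of the range of the group, above the critical value of Dixon's test at the 95% level, and chance gives about 1 such group in 20. TH replicate 2 was also the only TH array on which this probe was well above background.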

How the results depend on the processing

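The alternatives were the scalings, background corrections, and sources of values, the summary of probes, a filter on dim genes, subsets of arrays, the slide and the replicate number as blocks, other variance models, and each array left out. The 3 complex genes stayed higher in the oocyte in these alternatives except for TLE6 with the brightest probe, which is probe 1: -2.29 against the somatic mean, -2.35 against TH, -2.41 against GC, -1.86 against CC, and -2.52 against CC-IVM. Of the member probes, 5 were higher in each alternative. The number of complex genes that differed among the 4 somatic groups, 2, was 1 within slide 1, 1 within slide 2, and 3 with the deposited table. The number called between CC-IVM and CC, 1, was 3 with the deposited table, 2 with the 8 arrays alone, and 1 to 2 when an array was left out. After quantile normalization, 7350 genes were called lower in the oocyte against the somatic mean, where the main setting called 11063. With normexp, 16118 of 22550 genes were called between CC-IVM and CC, against 8078. The replicate numbers were not taken as pairs, as the methods name none. Deviations of same-numbered arrays correlated by -0.16 to 0.35 (median 0.04), and those of other arrays by -0.33 to 0.35 (median -0.01). Of 20 arrays, 13 correlated best with an array of their own number, and what same-numbered arrays share was not tested. With the replicate block 8166 genes were called between CC-IVM and CC, NLRP5 was lower there by -2.02 (adjusted p = 0.0022), and the number of complex genes called was unchanged at 1 for CC-IVM against CC and at 3 for the oocyte. Signal near background limits NLRP5 in somatic cells, since 5 of 16 somatic arrays were not well above it.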
